A study of Mus musculus with 12 samples.

Results

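The 10 genes described here encode enzymes that build serine, asparagine, proline and one-carbon units: Asns, Phgdh, Psat1, Psph, Shmt2, Mthfd2, Mthfd1l, Aldh1l2, Aldh18a1 and Pycr1. They were taken by gene symbol from a table of 55586 genes, as biosynthetic enzymes whose genes are known targets of the transcription factor ATF4. The rule itself uses no measured value, but the members were chosen with earlier results of these data known. Shares of members set beside shares of all genes are therefore descriptions. Each symbol matched 1 row, and all 10 passed the filter on low counts. RNA was sequenced from mouse peritoneal macrophages, the phagocytes of the abdominal cavity, grown in 1640 medium with fetal bovine serum. The 4 groups of 3 libraries were Remodelin with IFN-γ (Remodelin hydrobromide first, then interferon gamma), Remodelin hydrobromide alone, IFN-γ alone, and a control with neither. Remodelin inhibits NAT10, an RNA acetyltransferase, and IFN-γ is the classical activating cytokine of macrophages. The labels used here give no dose, duration, mouse strain, animal number or batch. They do not tell whether replicate libraries stem from different cultures or mice, so that a p-value reflects the spread among libraries alone, and that spread may be technical.

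The pathways of these enzymes are linked. PHGDH, PSAT1 and PSPH convert the glycolytic intermediate 3-phosphoglycerate to serine in the cytosol. In mitochondria SHMT2 moves a carbon of serine onto tetrahydrofolate, MTHFD2 oxidises that unit, MTHFD1L releases it as formate for purine and thymidylate synthesis in the cytosol, and ALDH1L2 instead oxidises it to carbon dioxide while making NADPH. ASNS makes asparagine from aspartate with glutamine as the nitrogen donor, and ALDH18A1 and PYCR1 carry out the first and last steps of proline synthesis from glutamate. ATF4, which is translated when the initiation factor eIF2 is phosphorylated under amino acid shortage or other stress, activates many of these genes together.

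Libraries held 15917454 to 19418665 counts, and 13474 genes were tested. Nat10, which encodes the target of the inhibitor, had a log2 fold change of -0.02 ± 0.15 (SE) for the average Remodelin effect, taken with and without IFN-γ. A list of 8 classical IFN-γ response genes served as a check of the IFN-γ labels. Of the 7 that could be tested, 0 were called for IFN-γ against control by edgeR, DESeq2 or limma-voom, and 0 had an unadjusted p under 0.05. Averaged over both levels of Remodelin, Gbp2, a guanylate-binding protein gene of that list, had a log2 fold change of 0.56 ± 0.12 for IFN-γ (adjusted p = 0.27 in edgeR), and DESeq2 called 1 of the 7. For Remodelin on average, 3 of the 7 were called lower and 0 higher, where 4.8% of all genes tested were called lower. IFN-γ groups are named here by their labels. Macrophage markers (10 genes, led by Lyz2 and Cd68) summed to 17158 to 24663 CPM in Remodelin with IFN-γ, 15017 to 25305 CPM in Remodelin, 19989 to 22696 CPM in IFN-γ and 15841 to 23652 CPM in control, where CPM is the count scaled to a common library total with TMM. Timd4, a marker of resident peritoneal macrophages, had at most 2 reads in any library. Gata6 and Icam2 of the same list had 149 to 386 and 63 to 127 reads a library.

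Averaged over both levels of IFN-γ, 5 of the 10 genes rose with Remodelin: Mthfd2, Asns, Psat1, Aldh1l2 and Pycr1. The estimates of Phgdh, Psph, Aldh18a1, Shmt2 and Mthfd1l were positive as well, between 0.14 and 0.41 on the log2 scale, and did not pass the test. With each library's trend with GC content removed, Phgdh, Shmt2 and Aldh18a1 were called too, among 769 of all genes. Of all genes tested, 2.24% were called higher in this comparison and 7.04% in either direction, by edgeR's quasi-likelihood test at a Benjamini-Hochberg adjusted p under 0.05. The median log2 fold change was 0.49 over the 10 members and 0.03 over all genes tested. In 4 of the 10 genes, Asns, Psat1, Mthfd2 and Aldh1l2, all 6 Remodelin libraries lay above all 6 libraries without Remodelin, a separation that 1.24% of all genes tested showed in that direction. In bulk RNA, fewer cells of a type and less RNA per cell cannot be told apart.

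The summed neutrophil markers and the summed B cell markers were lower in every library with Remodelin than in every library without it. No share of all genes is given for that direction, so the separation is a description. The sums of T and NK cell markers (at most 1.41 CPM) and of dendritic and mast cell markers (4.09 to 6.52 CPM) overlapped. The 8 neutrophil markers summed to 53.3 to 55.4 CPM in Remodelin with IFN-γ and 55.9 to 57.3 CPM in Remodelin, against 70.5 to 75.3 CPM in IFN-γ and 69.3 to 83.4 CPM in control. Csf3r, S100a8 and Mmp9 held most of those reads, while Ly6g, the defining neutrophil marker, had at most 1 read in any library. Retnlg had at most 4 reads and S100a9 at most 12, so the sum does not show that neutrophils were present. Of 5 neutrophil markers tested for the average Remodelin effect, Mmp8 and Mmp9 were called lower and 0 higher, where 4.8% of all genes tested were called lower. Cxcr2 had a positive estimate of 0.30 that was not called. The 6 B cell markers summed to 11.6 to 12.8 CPM in Remodelin with IFN-γ and 10.5 to 11.98 CPM in Remodelin, against 17.6 to 21.7 CPM in IFN-γ and 15.9 to 20.0 CPM in control, most of it Ighm. That gene was the only marker called of 5 tested, lower with Remodelin on average, where 4.8% of all genes tested were called lower. Mesothelial and stromal markers (12 genes, Col1a2 and Col1a1 holding most reads) had sums that overlapped between the groups, at 404 to 556 CPM in Remodelin with IFN-γ, 343 to 580 CPM in Remodelin, 457 to 539 CPM in IFN-γ and 525 to 803 CPM in control. Of those 12, 4 were called lower and 0 higher for the average Remodelin effect (Upk3b at -1.80, Col3a1, Upk1b and Krt19), by edgeR, where 4.8% of all genes tested were called lower. The part of these cells in the results below was not tested.

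**Figure D1:**
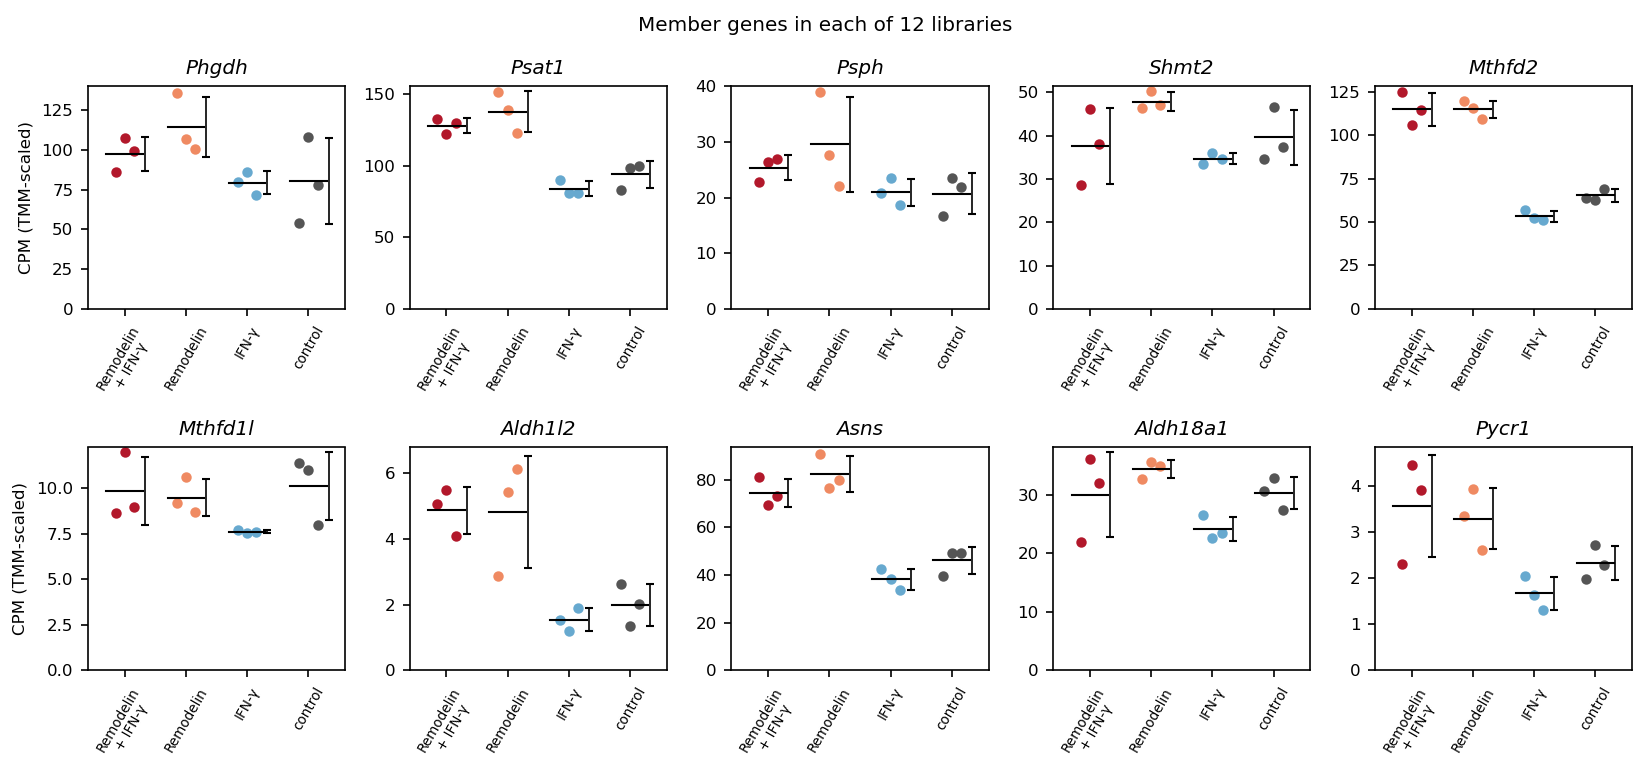
CPM of the 10 genes in each of the 12 libraries, on linear axes from 0; points are libraries, horizontal lines are group means and bars are SD (n = 3). Asns, Psat1, Mthfd2 and Aldh1l2 are the 4 genes in which every Remodelin library lies above every library without Remodelin.

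Mthfd2, on chromosome 6, encodes the mitochondrial dehydrogenase and cyclohydrolase of the folate pathway. It reached 125, 106 and 114 CPM in the 3 libraries of Remodelin with IFN-γ and 119, 116 and 109.5 CPM in those of Remodelin. The IFN-γ libraries held 56.9, 52.0 and 50.9 CPM and the control libraries 64.0, 62.5 and 69.3 CPM. The lowest Remodelin library was thus well above the highest library without it, and the groups did not overlap at either level of IFN-γ. The log2 fold change was 1.11 ± 0.13 (SE) in Remodelin with IFN-γ relative to IFN-γ (adjusted p = 0.00134, edgeR quasi-likelihood test), the smallest p of all 13474 genes in that comparison. For Remodelin against control it was 0.81 ± 0.13 (adjusted p = 0.00776 in edgeR). The average over both was 0.96 ± 0.09 (adjusted p = 1.66e-05 in edgeR), rank 7 by p, and stayed between 0.95 and 0.99, always called, when each of the 12 libraries was left out in turn.

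Asns, also on chromosome 6, encodes asparagine synthetase, the only enzyme of mammalian asparagine synthesis and a standard reporter of amino acid shortage. Its level was 81.0, 69.5 and 73.0 CPM in Remodelin with IFN-γ and 90.6, 76.3 and 80.05 CPM in Remodelin. It was 42.7, 38.2 and 33.8 CPM in IFN-γ and 39.7, 49.2 and 49.4 CPM in control. Again no Remodelin library came down to the level of any library without it. The log2 fold change was 0.96 ± 0.15 in Remodelin with IFN-γ relative to IFN-γ (adjusted p = 0.00656 in edgeR) and 0.84 ± 0.15 for Remodelin against control (adjusted p = 0.0121 in edgeR). On average it was 0.90 ± 0.11 (adjusted p = 0.000138 in edgeR), with 12 of 12 calls when single libraries were left out.

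Mthfd2 and Asns were the only members called for Remodelin against control, 2 of 10, where 0.193% of all genes tested were called higher and 0.846% in either direction. Both calls were lost without control 2, at adjusted p = 0.0630 for Mthfd2 and 0.0640 for Asns in edgeR, and when the 2 groups were fitted alone (0.0638 and 0.0792). In Remodelin with IFN-γ relative to IFN-γ, 3 of 10 members were called higher (Mthfd2, Asns and Aldh1l2), against 0.141% of all genes tested called higher and 0.364% in either direction. The Asns call there was lost without IFN-γ 2 (adjusted p = 0.0731 in edgeR) or IFN-γ 3 (0.0680). Over the 12 fits that left out 1 library, the log2 fold change for Remodelin against control ran from 0.78 to 0.86 for Mthfd2 and from 0.74 to 0.89 for Asns. Judged by overlap alone, 4 of 10 members lay wholly higher in Remodelin than in control, where 6.09% of all genes tested did, and 6 of 10 in Remodelin with IFN-γ than in IFN-γ, where 12.2% did.

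**Figure D2:**
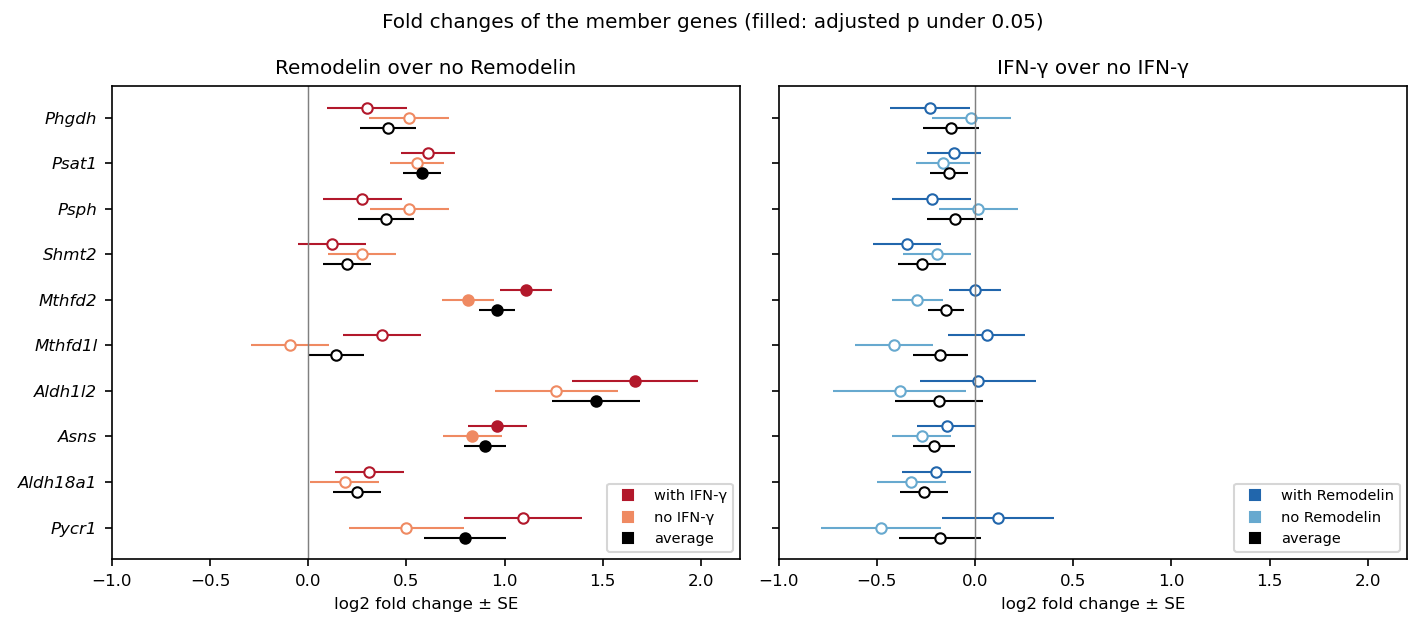
Log2 fold changes of the 10 genes with their SE, for Remodelin over no Remodelin (left) and IFN-γ over no IFN-γ (right), in the presence of the other agent, in its absence and on average; filled points have an edgeR adjusted p under 0.05. Filled points occur for Mthfd2, Asns, Aldh1l2, Psat1 and Pycr1 on the left, and no point is filled on the right.

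The promoters of these genes are shown because ATF4, with a C/EBP partner, binds a short element whose letters can be searched. RefSeq windows of the 250 bases before the transcription start (GRCm38.p6) were at hand for 9 of the 10 members, 10 windows in all, since Psat1 had 2. The motif TGATGNAA, the core of the C/EBP-ATF response element, was searched on both strands and is in capitals. It occurred in 2 of the 10 windows, those of Asns and Pycr1, and in 3.45% of 32851 windows of the same length genome-wide. The Mthfd2 window, from the member with the smallest p, is shown beside them. All 3 genes lie on the minus strand and are written 5′ to 3′ along the gene, at chr6:7693210-7693459 for Asns, chr11:120643749-120643998 for Pycr1 and chr6:83317605-83317854 for Mthfd2.
Asns: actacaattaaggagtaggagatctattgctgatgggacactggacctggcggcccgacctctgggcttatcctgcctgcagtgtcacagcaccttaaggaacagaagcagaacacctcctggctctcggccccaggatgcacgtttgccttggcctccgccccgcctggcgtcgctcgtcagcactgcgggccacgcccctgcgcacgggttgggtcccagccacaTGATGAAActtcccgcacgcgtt
Pycr1: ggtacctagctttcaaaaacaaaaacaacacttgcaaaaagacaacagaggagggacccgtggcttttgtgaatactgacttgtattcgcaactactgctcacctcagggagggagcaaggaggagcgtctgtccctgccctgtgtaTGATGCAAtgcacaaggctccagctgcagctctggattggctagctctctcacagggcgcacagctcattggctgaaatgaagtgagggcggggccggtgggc
Mthfd2: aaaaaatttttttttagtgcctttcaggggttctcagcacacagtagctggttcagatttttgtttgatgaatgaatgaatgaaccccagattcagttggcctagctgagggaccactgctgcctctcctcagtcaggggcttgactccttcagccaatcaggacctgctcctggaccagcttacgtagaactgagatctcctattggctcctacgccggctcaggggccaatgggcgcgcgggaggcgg
The Asns match, TGATGAAA, spans bases 23 to 16 before the start, and the Pycr1 match, TGATGCAA, spans bases 103 to 96. The CACGTG element, the E-box bound by Myc and related factors, was found in 1 window, that of Aldh18a1, and in 6.02% of all windows. A match describes the letters of the window and is no evidence of binding in these cells. The Mthfd2 window held no match, and sites outside the 250 bases or variants of the motif were not searched.

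The serine synthesis genes differed in how far their libraries spread. Psat1, on chromosome 19, encodes phosphoserine aminotransferase, the second step. It reached 133, 122 and 130 CPM in Remodelin with IFN-γ and 152, 139 and 123 CPM in Remodelin. Levels were 90.0, 81.0 and 81.3 CPM in IFN-γ and 83.4, 98.7 and 100.1 CPM in control. The groups were separate at both levels of IFN-γ, with log2 fold changes of 0.61 ± 0.14 in Remodelin with IFN-γ relative to IFN-γ and 0.55 ± 0.14 for Remodelin against control. Neither passed alone (adjusted p = 0.0623 and 0.0685 in edgeR), while the average of 0.58 ± 0.10 did (adjusted p = 0.00249 in edgeR) and was called in 12 of 12 fits that left out 1 library. DESeq2 called Psat1 in both single comparisons (adjusted p = 0.002825 and 0.003667).

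Phgdh, on chromosome 3, encodes phosphoglycerate dehydrogenase, which commits 3-phosphoglycerate to serine. It stood at 86.3, 107 and 99.2 CPM in Remodelin with IFN-γ, 136, 107 and 100.5 CPM in Remodelin, 79.7, 86.4 and 71.9 CPM in IFN-γ, and 54.3, 108 and 78.2 CPM in control. The control libraries lay far apart, with control 1 the lowest of the 12 libraries and control 2 above 2 of the 3 Remodelin libraries, so that Remodelin and control overlapped. The average log2 fold change was 0.41 ± 0.14 (adjusted p = 0.0921 in edgeR). Phgdh is GC-rich (57.2% of its transcript bases, percentile 87.7 of the genes tested). The libraries differed in how their counts followed GC content, in part along the groups. Spearman correlations of library deviation and GC content were -0.69, -0.12 and -0.26 in Remodelin with IFN-γ and 0.26, 0.10 and -0.37 in Remodelin. They were 0.22, 0.03 and -0.17 in IFN-γ and 0.12, 0.53 and 0.55 in control. With the GC trend removed from each library, the average log2 fold change of Phgdh was 0.61 (adjusted p = 0.00891 in edgeR), and without control 2 it was 0.54 (0.0424). GC percentiles were 38.5 for Asns, 38.7 for Aldh1l2, 42.2 for Psat1, 48.7 for Mthfd2 and 71.3 for Pycr1, the called members. They were 48.4 for Psph, 59.9 for Mthfd1l and 70.9 for Aldh18a1. Whether the calls follow GC content was not tested.

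Psph, on chromosome 5, encodes phosphoserine phosphatase, the last step to serine. It had 22.8, 26.4 and 27.0 CPM in Remodelin with IFN-γ and 38.9, 27.7 and 22.1 CPM in Remodelin, against 20.8, 23.5 and 18.7 CPM in IFN-γ and 16.7, 23.6 and 21.99 CPM in control. Remodelin 1 was the highest of the 12 libraries, and Remodelin 3 and Remodelin with IFN-γ 1 lay within the range of the libraries without Remodelin. The average log2 fold change of 0.39 ± 0.14 did not pass (adjusted p = 0.0979 in edgeR).

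Among the other mitochondrial folate enzymes the lowest expressed had the highest fold change. Aldh1l2, on chromosome 10, encodes mitochondrial 10-formyltetrahydrofolate dehydrogenase. It had 5.06, 5.48 and 4.08 CPM in Remodelin with IFN-γ and 2.88, 5.42 and 6.13 CPM in Remodelin, against 1.53, 1.19 and 1.89 CPM in IFN-γ and 2.63, 1.36 and 2.01 CPM in control. These levels rest on 21 to 106 reads a library. All Remodelin libraries were above all others, Remodelin 1 only just so relative to control 1. The average log2 fold change was 1.46 ± 0.22 (adjusted p = 0.00118 in edgeR), rank 24 from the highest among 13474 genes, and was called in 12 of 12 fits that left out 1 library. In Remodelin with IFN-γ relative to IFN-γ it was 1.66 ± 0.32 (adjusted p = 0.0311 in edgeR), a call lost in limma-voom (0.0521), with a replicate block (0.0653) and in 6 of 12 fits that left out 1 library (the 3 IFN-γ and the 3 Remodelin with IFN-γ libraries, up to 0.222). For Remodelin against control, 1.26 ± 0.31 did not pass (adjusted p = 0.0663 in edgeR).

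Shmt2 and Mthfd1l, the first and the formate-releasing steps, did not pass in any comparison. Shmt2, on chromosome 10, had 28.7, 46.1 and 38.0 CPM in Remodelin with IFN-γ, 46.3, 50.4 and 47.0 CPM in Remodelin, 33.4, 36.0 and 34.6 CPM in IFN-γ, and 34.7, 46.6 and 37.5 CPM in control. Its lowest value was in Remodelin with IFN-γ 1, the library with the strongest negative trend with GC content, and Shmt2 has 57.4% GC (percentile 88.4). The average log2 fold change was 0.20 ± 0.12 (adjusted p = 0.306 in edgeR), and 0.39 (0.0164) with the GC trend removed. Mthfd1l, also on chromosome 10, had 8.62, 12.004 and 8.97 CPM in Remodelin with IFN-γ and 9.16, 10.6 and 8.67 CPM in Remodelin, against 7.70, 7.52 and 7.61 CPM in IFN-γ and 11.4, 10.97 and 7.98 CPM in control. The 2 Remodelin effects had opposite signs, 0.38 ± 0.20 with IFN-γ and -0.09 ± 0.20 without, and the difference between them was 0.47 ± 0.28 (adjusted p = 1 in edgeR).

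Of the 2 proline enzymes, 1 rose. Aldh18a1, on chromosome 19, encodes pyrroline-5-carboxylate synthase, which starts the route from glutamate. It had 21.9, 36.1 and 32.0 CPM in Remodelin with IFN-γ, 32.7, 35.6 and 34.9 CPM in Remodelin, 26.5, 22.6 and 23.5 CPM in IFN-γ, and 30.6, 32.8 and 27.4 CPM in control. Its average log2 fold change was 0.25 ± 0.12 (adjusted p = 0.211 in edgeR). Here too Remodelin with IFN-γ 1 was the lowest library, and without it the value was 0.37 (0.0373), the same as with the GC trend removed (0.37, adjusted p = 0.0390).

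Pycr1, on chromosome 11, encodes the mitochondrial pyrroline-5-carboxylate reductase that finishes proline. It had 2.31, 4.44 and 3.90 CPM in Remodelin with IFN-γ and 3.33, 3.92 and 2.60 CPM in Remodelin, against 2.04, 1.64 and 1.32 CPM in IFN-γ and 1.97, 2.71 and 2.28 CPM in control, from 23 to 85 reads a library. The groups were separate with IFN-γ and overlapped without it. The average log2 fold change was 0.80 ± 0.21 (adjusted p = 0.0309 in edgeR). This was the least stable of the 5 calls: it held in 4 of 12 fits that left out 1 library, with adjusted p up to 0.0777 in the others, which left out control 2 or 3, any IFN-γ library, Remodelin 2, or Remodelin with IFN-γ 2 or 3.

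The authors' deposited table of their own comparisons held member calls in 3 of its 5 comparisons, all higher. The method of its fold changes is not named, and in low genes they were smaller than in edgeR. For Remodelin against control they were 0.76 against 1.26 for Aldh1l2 and 0.33 against 0.50 for Pycr1. Sizes are therefore not compared. For Remodelin against control, the authors' deposited table has Asns (log2 fold change 0.74) and Mthfd2 (0.75) at an adjusted p under 0.05, 2 of 10 members, where 0.195% of its genes with an adjusted p were called higher. In Remodelin with IFN-γ relative to IFN-γ, the authors' deposited table has Mthfd2 (1.01), Asns (0.86) and Psat1 (0.56), 3 of 10 against 0.7%. There it gives Aldh1l2 (1.10) and Pycr1 (0.65) an adjusted p of 1, which can stand for a missing value and is not read as a result. For Remodelin with IFN-γ against control, the authors' deposited table has Aldh1l2 (0.95), Mthfd2 (0.75) and Asns (0.63), 3 of 10 against 2.09%. For the IFN-γ comparisons of the authors' deposited table, none of the 10 members was called for Remodelin with IFN-γ against Remodelin, where it called 0.00489% of its genes, nor for IFN-γ against control, where it called 0.593%.

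IFN-γ gave no called change in any member. Since 0 of 7 IFN-γ response genes were called for IFN-γ against control either, this cannot be read as a lack of response of the members. For IFN-γ against control 0 of 10 were called by edgeR, DESeq2 or limma-voom, 1 had an unadjusted p under 0.05 in edgeR, and 0.0148% of all genes tested were called. That gene was Mthfd2, at -0.29 ± 0.13 (adjusted p = 0.889 in edgeR), whose 3 IFN-γ libraries lay below the 3 control libraries, as did those of Mthfd1l and Aldh18a1, 3 of 10 where 8.51% of all genes tested did. For Remodelin with IFN-γ against Remodelin, 0 of 10 were called and 0 had an unadjusted p under 0.05 in edgeR, with 0 calls in DESeq2 and limma-voom, and edgeR called 0% of all genes. Only Shmt2 had groups that did not overlap there, lower in Remodelin with IFN-γ, 1 of 10 where 3.49% of all genes did. On average over both levels of Remodelin the 10 log2 fold changes for IFN-γ ran from -0.27 (Shmt2, unadjusted p = 0.0411, adjusted p = 0.375 in edgeR) to -0.10 (Psph), and 0 of 10 were called by the 3 tools, where edgeR called 0.00742% of all genes.

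The Remodelin effect was not shown to differ with IFN-γ for any member, and the limit set by the IFN-γ response genes holds here too. In the interaction 0 of 10 were called by edgeR, DESeq2 or limma-voom and 0 had an unadjusted p under 0.05, against 0.00742% of all genes called. The estimates, with IFN-γ minus without, ran from -0.24 ± 0.28 for Psph to 0.59 ± 0.42 for Pycr1, and Mthfd2 was at 0.29 ± 0.19. Their standard errors ran up to 0.45 for Aldh1l2. They leave room for differences of the size of the effects themselves in the low genes and in others. Such were Phgdh (-0.21 ± 0.29, average effect 0.41) and Shmt2 (-0.15 ± 0.24, average effect 0.20).

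Ratios of 2 genes within a library compare pathway neighbours without the library total. They are ratios of CPM, not per length, so only their differences between groups are read. There were 13 such pairs, of which 12 are described, chosen after the results were known: steps that follow each other, mitochondrial enzymes with their cytosolic counterparts, and paralogs. Remodelin labels were permuted exactly within each level of IFN-γ (400 arrangements, two-sided, smallest possible p 0.005), and p-values were adjusted over the 13 pairs. The difference was called in 7 of these 12 pairs. Each of those 7 holds Mthfd2, Aldh1l2 or Pycr1, which were already called for the average Remodelin effect. As the fold changes were known when the pairs were chosen, these calls describe them and are no separate test.

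Mthfd2 parted from the cytosolic enzyme that catalyses the same reactions. MTHFD1 is the cytosolic trifunctional folate enzyme. The log2 ratio of Mthfd2 to Mthfd1 was 1.63, 1.33 and 1.51 in Remodelin with IFN-γ and 1.74, 1.49 and 1.44 in Remodelin. It was 0.49, 0.40 and 0.33 in IFN-γ and 0.46, 0.47 and 0.47 in control. Every Remodelin library was thus far above every other, and the difference was 1.09 ± 0.07 (exact permutation, adjusted p = 0.0108). Mthfd1 itself had an average log2 fold change of -0.13 ± 0.09 (adjusted p = 0.394 in edgeR).

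Aldh1l2 stood likewise against Aldh1l1, the gene of the cytosolic form of its enzyme. The log2 ratio of Aldh1l2 to Aldh1l1 averaged -0.05 ± 0.41 (SD, n = 3) in Remodelin with IFN-γ and -0.02 ± 0.64 in Remodelin, against -2.04 ± 0.16 in IFN-γ and -1.95 ± 0.60 in control. The 6 Remodelin libraries lay between -0.71 and 0.57 and the other 6 between -2.63 and -1.51. The difference was 1.96 ± 0.28 (exact permutation, adjusted p = 0.0108). Aldh1l1 had an average log2 fold change of -0.52 ± 0.16, just short of a call (adjusted p = 0.0503 in edgeR).

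Within the mitochondrial route, Mthfd2 was not matched by Shmt2 or Mthfd1l, while Aldh1l2 had a higher estimate (1.46) than Mthfd2 (0.96). The log2 ratio of Mthfd2 to Shmt2 ran from 1.19 to 2.11 in the 6 Remodelin libraries and from 0.42 to 0.89 in the other 6, a difference of 0.77 ± 0.16 (exact permutation, adjusted p = 0.0108). With the GC trend removed that difference was 0.57 (exact permutation, adjusted p = 0.00929). The ratio of Mthfd1l to Mthfd2 ran from -3.84 to -3.13 with Remodelin and from -3.11 to -2.49 without, a difference of -0.82 ± 0.15 (exact permutation, adjusted p = 0.0108). The ratio of Mthfd2 to its paralog Mthfd2l, which also encodes a mitochondrial dehydrogenase, differed by 0.74 ± 0.13 (exact permutation, adjusted p = 0.0186), and its 2 sets of 6 libraries overlapped. Without Remodelin 1, Aldh1l2 over Mthfd2 differed by 0.65 (exact permutation, adjusted p = 0.0361). With all libraries, Aldh1l2 over Mthfd2 (0.47 ± 0.26) and Shmt2 over Shmt1 (0.48 ± 0.24) did not pass (exact permutation, adjusted p = 0.0945 for each), while Shmt2 over Shmt1 did with the GC trend removed (0.71, adjusted exact permutation p = 0.0217).

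**Figure D3:**
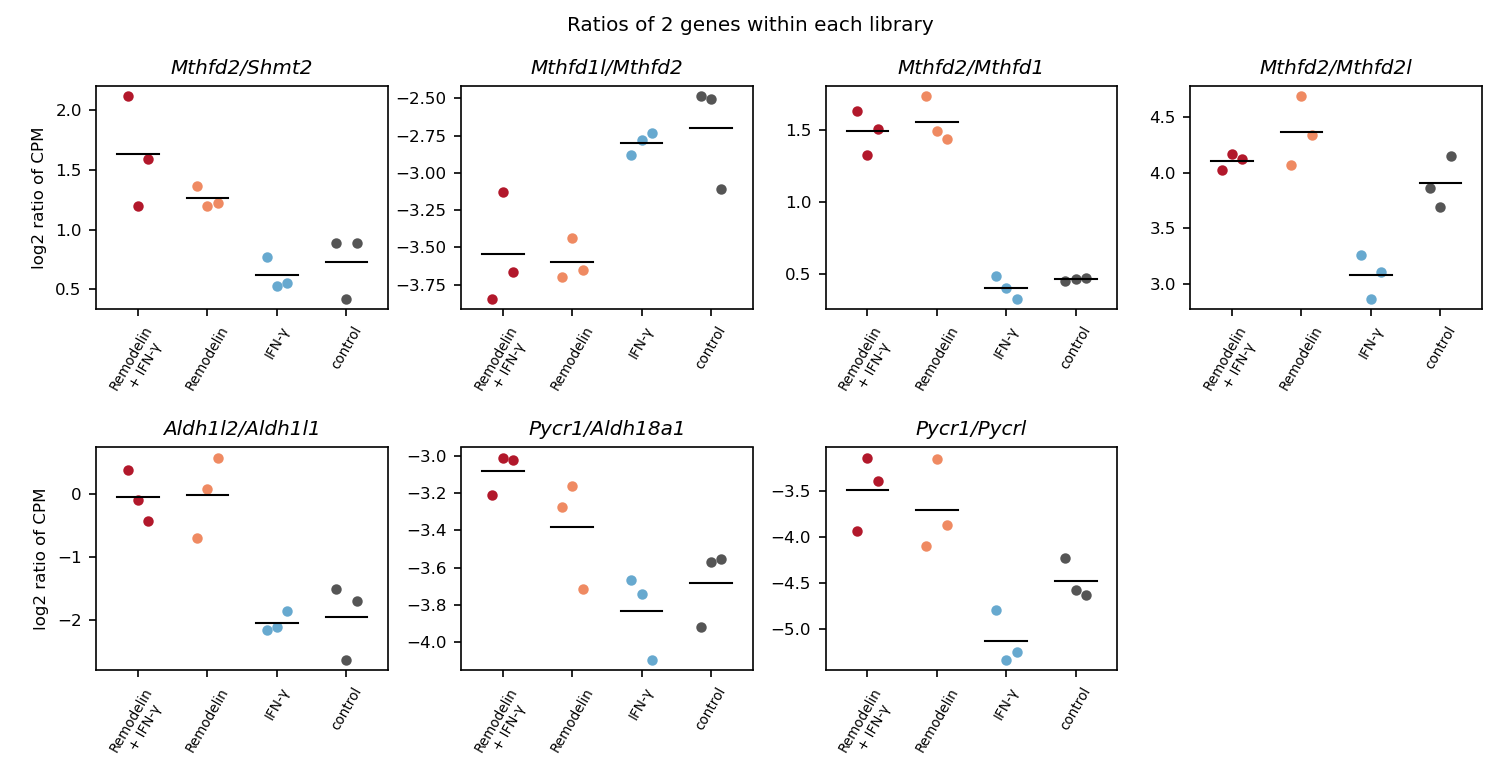
Log2 ratio of the CPM of 2 genes within each library, for 7 pairs with an adjusted exact permutation p under 0.05; points are libraries and lines group means, and each vertical axis has its own range. The 6 Remodelin libraries lie above the other 6 for Mthfd2/Shmt2, Mthfd2/Mthfd1, Aldh1l2/Aldh1l1 and Pycr1/Pycrl, and below them for Mthfd1l/Mthfd2.

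Pycr1 parted from Pycrl, the gene of the cytosolic pyrroline-5-carboxylate reductase. The log2 ratio of Pycr1 to Pycrl averaged -3.49 ± 0.41 in Remodelin with IFN-γ and -3.71 ± 0.49 in Remodelin, against -5.13 ± 0.29 in IFN-γ and -4.48 ± 0.21 in control (SD, n = 3 each). Its 2 sets of 6 libraries were separate, and the difference was 1.202 ± 0.212 (exact permutation, adjusted p = 0.0108). Pycrl had a negative estimate that was not called, -0.45 ± 0.15 (adjusted p = 0.0781 in edgeR). Pycr1 over Aldh18a1, the last step of proline synthesis over the first, differed by 0.53 ± 0.13 (exact permutation, adjusted p = 0.0244).

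Neither ratio between serine synthesis steps passed with all 12 libraries. Psat1 over Phgdh differed by 0.15 ± 0.14 (exact permutation, adjusted p = 0.315) and Psph over Psat1 by -0.20 ± 0.11 (exact permutation, adjusted p = 0.13), which passed without Remodelin 1 (-0.27, adjusted exact permutation p = 0.0163). Mthfd1l over Mthfd1 differed by 0.27 ± 0.13 (exact permutation, adjusted p = 0.0506), and by 0.26 (0.0433) with 5 reads added to each count in place of 1, and it was called without control 1, Remodelin 3, or Remodelin with IFN-γ 1 or 3 (0.29 to 0.32). A ratio shows that 2 genes changed unequally and does not show which of them changed.

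Per length of transcript, Phgdh was the most abundant of the 10 in every group. Its FPKM, the authors' deposited value per gene length and a scaled total of each library, was 38.9 ± 4.15 in Remodelin with IFN-γ, 46.8 ± 9.25 in Remodelin, 31.6 ± 3.09 in IFN-γ and 32.0 ± 10.9 in control (SD, n = 3 each). In control, Psat1 (21.9 ± 2.32), Mthfd2 (18.6 ± 1.13), Asns (16.7 ± 2.12) and Shmt2 (12.6 ± 2.02) followed, and each of these overlapped its neighbour in the order. Then came Aldh18a1 (7.37 ± 0.64), Psph (4.75 ± 0.86), Mthfd1l (2.26 ± 0.40), Pycr1 (0.585 ± 0.096) and Aldh1l2 (0.264 ± 0.083), each separate from the next. In IFN-γ the order was the same. In both groups with Remodelin, Mthfd2 took second place, at 32.6 ± 2.78 FPKM in Remodelin with IFN-γ and 33.4 ± 2.36 FPKM in Remodelin, ahead of Psat1 at 29.8 ± 1.35 and 32.9 ± 4.30 FPKM, with overlapping libraries. Pycr1 and Aldh1l2, separate in IFN-γ and control, overlapped in both Remodelin groups, at 0.893 ± 0.277 and 0.643 ± 0.093 FPKM in Remodelin with IFN-γ and 0.846 ± 0.172 and 0.645 ± 0.215 FPKM in Remodelin.

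Other genes of these pathways were taken from lists set up for the comparison. With 7.04% of all genes tested called for the average Remodelin effect, a list of 9 or 10 genes with 0 calls is near the background. Of 9 tested cytosolic folate enzymes 0 were called for the average Remodelin effect by edgeR, 1 had an unadjusted p under 0.05, and 1 was called by DESeq2 and 0 by limma-voom; their median log2 fold change was -0.13. Of 10 other mitochondrial folate and glycine cleavage genes 0 were called (2 unadjusted, 1 in DESeq2, 0 in limma-voom), with a median of 0.09. Sardh, sarcosine dehydrogenase, at -0.57 ± 0.18, and Gcat, at -0.53 ± 0.20, had the smallest p there (adjusted p = 0.0629 and 0.106 in edgeR). Slc25a32, the mitochondrial folate carrier, was at 0.29 ± 0.15 (adjusted p = 0.221 in edgeR).

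Of 10 other proline, ornithine and glutamate enzymes 0 were called (5 unadjusted, 2 in DESeq2, 0 in limma-voom), with a median of -0.15. Beside Pycrl, Aldh4a1, which breaks proline down to glutamate, was at -0.46 ± 0.14 (adjusted p = 0.0575 in edgeR). Of 9 purine synthesis genes 0 were called (3 unadjusted, 1 in DESeq2, 0 in limma-voom), with a median of -0.07. Atic and Gart, which encode the 2 enzymes that use formyl folate, were at -0.32 ± 0.10 and -0.27 ± 0.10 (adjusted p = 0.0599 and 0.123 in edgeR). Of 9 glycolytic genes upstream of PHGDH 0 were called (1 unadjusted, 0 in DESeq2 and limma-voom), with a median of 0.06.

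Genes of serine and asparagine use gave 2 calls of 7 tested, both higher, where 2.24% of all genes tested were called higher, and 1 call in limma-voom. Cth, cystathionine gamma-lyase, which makes cysteine from the serine-derived cystathionine and is also a known ATF4 target, had 6.43, 3.39 and 3.55 CPM in Remodelin with IFN-γ and 4.04, 3.00 and 4.28 CPM in Remodelin, against 1.36, 1.98 and 1.43 CPM in IFN-γ and 1.06, 1.52 and 1.63 CPM in control. The groups did not overlap, and its log2 fold change of 1.45 ± 0.22 (adjusted p = 0.00113 in edgeR) was close to that of Aldh1l2. Srr, serine racemase, was at 0.57 ± 0.17 (adjusted p = 0.0469 in edgeR), and Asrgl1, an asparaginase, at 0.39 ± 0.13 (adjusted p = 0.0836 in edgeR).

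ATF4 itself and its other targets were compared as a list of 18 genes, of which 5 rose with Remodelin on average and 0 fell, where 2.24% of all genes tested were called higher. They were Chac1, a glutathione-degrading enzyme, at 1.13 ± 0.15, Nupr1 at 1.07 ± 0.17, Ddit3, which encodes CHOP, at 0.96 ± 0.16, Trib3, a pseudokinase that inhibits AKT, at 0.72 ± 0.12, and Sesn2, an inhibitor of mTORC1 signalling, at 0.57 ± 0.12 (adjusted p from 0.000433 to 0.0109 in edgeR). The median of the 18 was 0.19. Sesn2 and Atf4 are named outside the rule for list genes, after their values were seen. Atf4 mRNA had 473, 400 and 410 CPM in Remodelin with IFN-γ and 538, 403 and 432 CPM in Remodelin, against 366, 368 and 345 CPM in IFN-γ and 312, 375 and 376 CPM in control. All 6 Remodelin libraries were above all others, and the log2 fold change of 0.31 ± 0.11 did not pass (adjusted p = 0.0819 in edgeR). Proliferation markers, by contrast, gave 0 higher and 5 lower of 11, where 4.8% of all genes tested were called lower, with a median of -0.40 and Mcm5, a subunit of the replicative helicase, at -1.03 ± 0.13 (adjusted p = 0.000176 in edgeR).

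**Figure D4:**
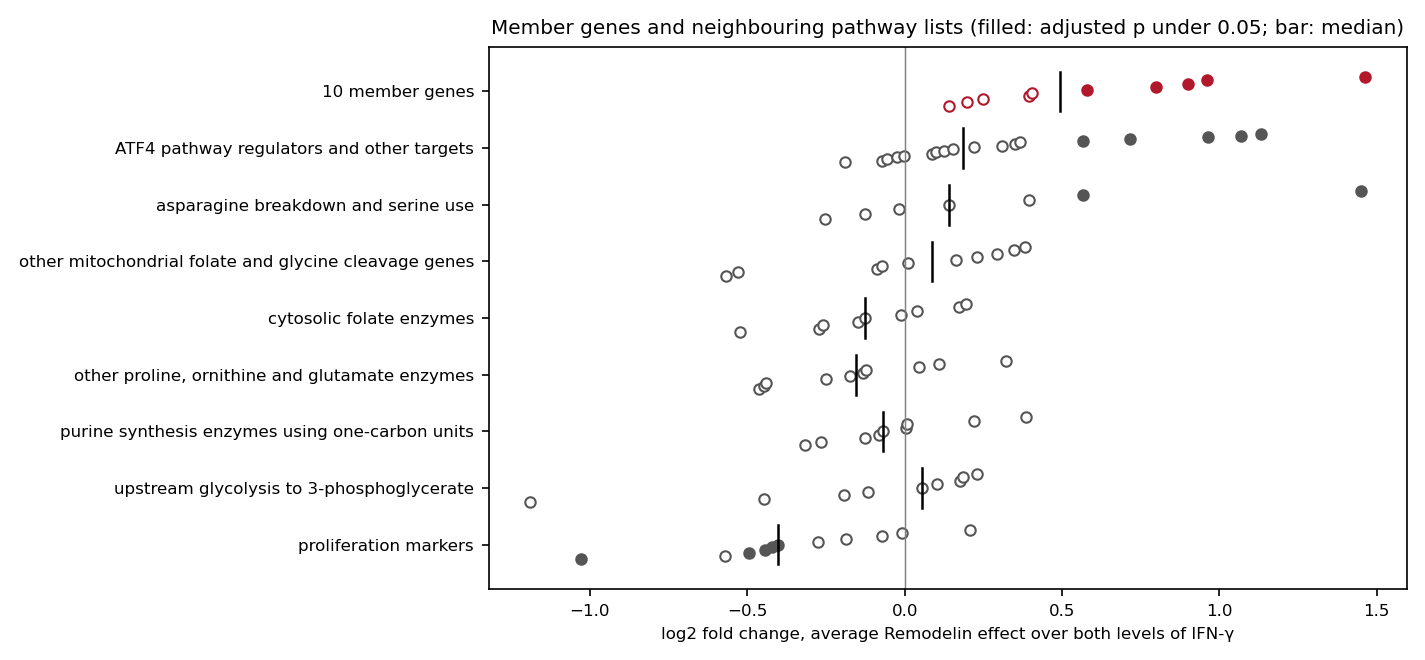
Log2 fold change of each tested gene for Remodelin averaged over both levels of IFN-γ, for the 10 members and 8 other lists; filled points have an edgeR adjusted p under 0.05 and bars are list medians. The members' median is 0.49, the ATF4 list has 5 filled points and a median of 0.19, and the cytosolic folate, other mitochondrial folate, proline, purine and glycolysis lists have none.

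The members also differed in how closely they followed their common profile over the 12 libraries, the mean of their centred log2 CPM. Psat1 was nearest to it, with a root mean square difference of 0.10, and Aldh1l2 farthest, with 0.56. This measure counts the size of a change as well as its shape, and each member is part of the mean. Among 9151 other genes with a mean of at least 5 CPM, the 6 nearest to that profile were Cdkn1a (0.10), the p21 cell cycle inhibitor, Dusp1 (0.11), a MAP kinase phosphatase, Eef2 (0.11), the translation elongation factor, Zkscan17 (0.11), Trib3 (0.13) and the histone gene H1f2 (0.15). This nearness is a description over 12 libraries that share the Remodelin contrast.

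Phgdh has a processed pseudogene in the table, Gm7901, with 30 to 91 reads a library against 1072 to 2125 for Phgdh, and the counting could divide reads between them. Of 18 pseudogene rows whose descriptions name a member enzyme, 12 had no read in any library.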

How the data were processed

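RNA was sequenced from 12 libraries of mouse peritoneal macrophages, 3 in each of 4 groups. The authors used CASAVA 1.8, HISAT2 2.0.5 and featureCounts 1.5.0-p3, per the submitters' processing notes. No source used here names the genome build, so no coordinates from the table are printed. The authors deposited raw counts per gene and FPKM values, which divide those counts by gene length and 1 scaled total per library. That total ran from 85.6% (Remodelin 1) to 111.7% (control 1) of the summed counts of the library. The same deposited table holds the authors' log2 fold changes and their p-values and adjusted p-values for 5 comparisons, whose method no source used here names. Group means in that table were not used.

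From the counts, edgeR 4.0.16 (R 4.3.3) was fitted by quasi-likelihood to all 12 libraries with TMM scaling, after its filter on low counts left 13474 genes, and p-values were adjusted by Benjamini-Hochberg over those genes, with calls under 0.05. The spread between libraries of a group had a common coefficient of variation of 18.6%. Levels are CPM with TMM-scaled totals, and 3 counts a library were taken as the detection floor. Alternatives were DESeq2 1.42.0, DESeq2 size factors, limma-voom (limma 3.58.1), no filter, a filter of at least 50 reads in 3 libraries, a GC trend removed per library, a replicate block, the 2 compared groups alone, and libraries left out. The members, the gene lists and the tests were chosen with earlier results of these data known. Named genes are all 10 members, up to 4 genes with the smallest p of each other list, the 6 genes of nearest pattern, and markers. Genes paired with a member in a ratio were chosen after their values were seen. The result of 1 such pair is not reported here.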

Additional observations from a re-analysis of the deposited data

How the results depend on the processing

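The average Remodelin effect kept its direction for all 10 members under the 20 alternatives run on each. Members called there, 5, numbered 4 to 6 with single libraries left out and 8 with the GC trend removed, where 769 of all genes were called. Against control, Remodelin alone had 2 members called, 4 by DESeq2, 0 with the 2 groups alone, and 0 to 4 with single libraries left out (0 without control 2, 4 without Remodelin with IFN-γ 1). With IFN-γ, 3 were called, and 1 to 4 with single libraries left out (1 without IFN-γ 2 or 3). Among all genes, calls numbered 114, 49 and 949 in these 3 fits, and with single libraries left out 20 to 216, 10 to 144 and 298 to 1960. They numbered 247, 292 and 1367 by DESeq2, 283, 271 and 1406 with no filter, 22 and 83 with the 2 groups alone, and 1853, 464 and 3668 with control 1 and Remodelin 1 both left out.

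No uncalled estimate that changed sign was called. With control 1 and Remodelin 1 both left out, Mthfd1l was at 0.024 for Remodelin against control, Psph at -0.12 for IFN-γ against control, Psph at 0.028 and Aldh1l2 at -0.24 for Remodelin with IFN-γ against Remodelin, and the interaction was 0.15 for Phgdh, 0.15 for Psph and -0.11 for Aldh1l2. Phgdh for IFN-γ against control was 0.036 in limma-voom and 0.13 with the GC trend removed, and its average IFN-γ effect was 0.028 with that trend removed, and the ratio Psat1/Phgdh was then -0.093. For Remodelin with IFN-γ against Remodelin, Mthfd2, at 0.0004, was -0.034 with DESeq2 size factors, -0.027 with no filter, -0.032 in DESeq2, -0.0023 in limma-voom and -0.028 with the GC trend removed, and Aldh1l2 was -0.0094, -0.0024, -0.0078 (DESeq2) and -0.069 (GC). The cause was not tested. With single libraries left out, ranges that crossed 0 were -0.24 to 0.0011 (Mthfd1l, Remodelin against control), -0.052 to 0.30 (Shmt2, Remodelin with IFN-γ against IFN-γ), -0.23 to 0.26 (Phgdh) and -0.12 to 0.12 (Psph) for IFN-γ against control. Comparing Remodelin with IFN-γ to Remodelin alone, they were -0.39 to 0.028 (Psph), -0.080 to 0.059 (Mthfd2), -0.11 to 0.15 (Mthfd1l), -0.24 to 0.23 (Aldh1l2) and -0.075 to 0.33 (Pycr1). For the interaction they were -0.49 to 0.0062 (Phgdh), -0.020 to 0.14 (Psat1), -0.41 to 0.0093 (Psph) and -0.026 to 0.29 (Aldh18a1), and for the average IFN-γ effect -0.23 to 0.016 (Phgdh) and -0.19 to 0.023 (Psph).

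Libraries with the same number did not clearly deviate together (18 pairs, r from -0.55 to 0.26, 5 over 0.1), so no pairing by number was seen. With 3 libraries a group and GC trends that differ between libraries, this check cannot exclude pairing. With a replicate block, 2, 2 and 5 members and 58, 24 and 578 of all genes were called in the 3 Remodelin fits, and for the average the lists of serine use, IFN-γ response and proliferation had 1 call each, Phgdh for IFN-γ against control was at 0.0041, and Mthfd2 for Remodelin with IFN-γ against Remodelin was at -0.0018. The low reads of Aldh1l2 and Pycr1 limit how finely their differences can be read.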
